A study of Mus musculus with 6 samples.

Results

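The genes described here are the mouse matrix metalloproteinases (Mmp), the membrane-bound ADAM proteases (Adam), the secreted ADAMTS proteases (Adamts), the tissue inhibitors of metalloproteinases (Timp) and the serpins (Serpin). They were chosen by name, as every gene whose probe sets on the array carried 1 symbol beginning with one of these prefixes and not by a measured value, although this group of families was picked with earlier results of these data known. The rule found 56 genes on 71 probe sets, of 8251 genes with 1 symbol on 12422 probe sets. Of these 56 genes, 13 were Mmp, 16 Adam, 1 Adamts, 3 Timp and 23 Serpin, which makes 30 proteases and 26 inhibitors when sorted by family name. The sorting follows the names only, and activity was not checked member by member. As examples, Adam11 belongs to a branch of ADAMs without catalytic activity, and Serpinf1 and Serpinh1 are serpins that do not inhibit proteases.

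RNA was measured in whole embryonic kidneys (metanephros) at E14.5 (embryonic days after mating) on 6 one-colour Affymetrix MG_U74Av2 arrays, 4 from wild-type kidneys and 2 from kidneys of embryos carrying the germline allele Wnt4tm1Amc. Wnt4 is a secreted signal, and per the study's design text nephron precursors from the renal vesicle onwards do not form without it, so the comparison was meant to find genes expressed in those structures. Each wild-type array held a pool of 2 kidneys and each mutant array a pool of 8 to 10 kidneys from 4 to 5 embryos (how many embryos gave a wild-type pool is not stated). Wild-type samples carry the strain label CD-1 and mutant samples 129, whereas the protocol text speaks of CD-1 matings in both groups, so genotype, strain label and pool size cannot be told apart.

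Metalloproteinases and ADAMs hold a zinc ion in their active site. MMPs cut collagens and other matrix proteins, and ADAMs release growth factors, Notch ligands and adhesion proteins from the cell surface. TIMPs block metalloproteinases by binding the active site, whereas most serpins trap serine proteases such as elastase, plasmin and thrombin in an irreversible complex. In the developing kidney these enzymes and inhibitors take part in remodelling the matrix around the branching ureteric bud and the forming nephrons.

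Among the proteases, Mmp11 rose in the mutant kidneys, with a log2 difference (mutant minus wild type) of 0.92. Among the inhibitors, Serpina3n (2.12) and Serpinf1 (0.85) rose, and the antitrypsin genes Serpina1b (-1.99) and Serpina1e (-1.01) fell. Of the 10 Adam and 3 Timp genes tested 0 passed, where 11.5% of all 6081 genes tested were called in either direction. With so few genes, no family result can be read from these counts. Mmp14, the membrane-bound activator of pro-MMP2, did not pass either. A gene was tested where its signal lay above the 40th percentile of the array on 2 or more arrays, and it was called where limma's Benjamini-Hochberg adjusted p over all tested probe sets was below 0.05.

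The sequences before the start sites of the genes that these results turn on are shown first. They were taken from the RefSeq promoter table of assembly GRCm38.p6 and are written 5′ to 3′ on the strand of the gene. The table held a promoter (250 bases before to 50 bases after the start) for 39 of the 56 genes, and 32851 promoters in all. The 250 bases before the start of Mmp11, the only protease called higher, lie at chr10:75932503-75932752 on the minus strand. Capitals mark GGGCGG, the GC box bound by Sp1.
Mmp11: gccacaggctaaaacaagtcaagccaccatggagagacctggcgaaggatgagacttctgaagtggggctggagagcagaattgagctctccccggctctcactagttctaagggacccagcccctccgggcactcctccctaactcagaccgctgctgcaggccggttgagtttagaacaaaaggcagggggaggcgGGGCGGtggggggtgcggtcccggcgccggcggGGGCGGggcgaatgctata
GGGCGG was searched on both strands. It occurs in 35.7% of all promoters and in 18 of the 45 member promoters (18 of the 39 member genes). The uncalled Adam10, Timp1 and Serpinh1 are among these genes. In Mmp11 GGGCGG begins 52 and 19 bases before the start, and again at positions 3 and 44 counted from the start as 1. The Mmp14 promoter holds it 19 and 13 bases before the start. No position or letter of a probe set enters these matches, and a match describes the letters only.

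The antitrypsin genes Serpina1a to Serpina1e lie on chromosome 12, with 3 protein-coding genes between Serpina1b and Serpina1e. They are shown because the members among them (Serpina1b, Serpina1c and Serpina1e) had lower signals in the mutant at their brightest probe sets and because their promoters share long stretches. Each line gives 56 bases around GTTAAT, the half-site of the hepatocyte nuclear factor HNF1, in capitals, all on the minus strand. The windows lie at chr12:103863615-103863670 (Serpina1a), chr12:103738190-103738245 (Serpina1b), chr12:103904952-103905007 (Serpina1c), chr12:103773624-103773679 (Serpina1d) and chr12:103956950-103957005 (Serpina1e).
Serpina1a: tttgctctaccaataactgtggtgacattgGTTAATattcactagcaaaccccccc
Serpina1b: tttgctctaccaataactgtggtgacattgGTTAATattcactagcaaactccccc
Serpina1c: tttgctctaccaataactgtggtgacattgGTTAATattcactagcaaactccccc
Serpina1d: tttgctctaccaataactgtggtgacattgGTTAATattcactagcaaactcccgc
Serpina1e: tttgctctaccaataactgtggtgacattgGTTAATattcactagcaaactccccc
The windows of Serpina1b, Serpina1c and Serpina1e were identical, and those of Serpina1a and Serpina1d differed from Serpina1b at 1 base each. Over the whole promoters, the longest run shared without a difference was 119 bases for Serpina1b with Serpina1e, and 59 to 115 bases for the other pairs. GTTAAT begins 26 bases before the start in Serpina1b, 27 in Serpina1c and 78 in Serpina1e. It occurs on either strand in 7.10% of all promoters and in 5 of the 45 member promoters (5 of the 39 member genes). The other members with GTTAAT are Mmp8 and Mmp12.

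Serpinf1 and Serpinf2 are neighbours on chromosome 11 with 0 protein-coding genes between them, and their probe sets gave the results that differ most within 1 gene. The 250 bases before their starts lie at chr11:75422624-75422873 (Serpinf1) and chr11:75439502-75439751 (Serpinf2), both on the minus strand. Capitals mark AGGTCA, a half-site of nuclear receptors, or TGACCT, the same letters on the opposite strand.
Serpinf1: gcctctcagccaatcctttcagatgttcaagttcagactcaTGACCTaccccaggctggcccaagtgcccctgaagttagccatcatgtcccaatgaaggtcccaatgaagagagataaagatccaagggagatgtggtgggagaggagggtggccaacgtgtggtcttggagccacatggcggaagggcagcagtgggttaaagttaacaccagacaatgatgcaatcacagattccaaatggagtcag
Serpinf2: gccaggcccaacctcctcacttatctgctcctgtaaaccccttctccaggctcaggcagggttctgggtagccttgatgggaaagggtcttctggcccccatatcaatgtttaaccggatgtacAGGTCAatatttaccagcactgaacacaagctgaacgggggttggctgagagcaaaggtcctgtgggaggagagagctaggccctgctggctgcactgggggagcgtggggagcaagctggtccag
In Serpinf1 a match begins 209 bases before the start, and another begins 2 bases before the start and runs past the end of the printed stretch. In Serpinf2 the match begins 126 bases before the start. AGGTCA occurs in 16.3% of all promoters and in 9 of the 45 member promoters (8 of the 39 member genes). Serpina3n, the called member with the largest positive difference, had no match to these letters, to GTTAAT or to GGGCGG. It also had none to TGANTCA (the AP-1 site) or to CTTTGAT (the site of TCF factors). Whether it is among the 39 genes with a promoter is not given here, so the letters may not have been looked for. The lack of a match says nothing of the factors.

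The arrays were scaled by the authors, and the median signal lay between 172.7 and 191.04. Across all probe sets the log2 values of 2 wild-type arrays correlated at 0.9494 to 0.9687, those of the 2 mutant arrays at 0.9672, and those of arrays from different groups at 0.9442 to 0.9546. The lowest wild-type value was that of replicates 2 and 4, and results that turn on these arrays are given with and without them. Wnt4 itself read 829, 739, 946 and 699 in the wild type and 74.2 and 34.5 in the mutant (-3.59, limma adjusted p = 6.11e-05), and whether its probe set covers the altered sequence of the allele was not tested. Of 9 measured metanephros markers 8 were tested and 1 passed, the stromal Foxd1, which was higher, and no marker was at 0. Wt1 (-0.48, limma adjusted p = 0.0823) and Pax2 (-1.05, adjusted p = 0.0961) did not pass. Their mutant signals were nonetheless the lowest, for Pax2 barely so (115.29 against 115.38 at the closest). Ret, which was not tested, read 30.5 to 104 in the wild type and 8.08 and 8.61 in the mutant. Hoxd11 was highest in the mutant without passing (0.22, adjusted p = 0.168), and Six2, Gdnf, Eya1 and Wnt11 had overlapping groups. Marker lists of other cells moved with genotype: 6 of 8 tested proximal tubule markers were lower (summed signal 2187 to 2932 in the wild type and 272 to 322 in the mutant), 8 of 10 stromal markers were higher (26084 to 31702 against 47286 to 48010), and 7 of 12 skeletal muscle markers were higher (2013 to 2757 against 6654 to 6966). In whole organs, fewer cells of a type and less RNA per cell cannot be told apart.

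Of the 56 genes, 28 passed the filter and were tested, 14 proteases and 14 inhibitors. Over all 6081 genes tested, 11.5% were called, 6.35% lower and 5.13% higher. Proteases had 0 lower, 1 higher and 13 not past the threshold by limma (0 lower and 3 higher at an unadjusted p under 0.05), and their differences ran from -0.28 to 0.92 with a median of 0.28, against a median of 0.01 over all genes tested. The protease median was 0.07 without wild-type replicate 4, and 0.018 with replicate numbers fitted as a block. Between the 4 wild-type arrays, the median protease deviation from the wild-type means had an SD of 0.22. Inhibitors had 2 lower, 2 higher and 10 not past it, and their differences ran from -1.99 to 2.12 around a median of 0.03, which was -0.0039 after median scaling. Both ends of the inhibitors' range are genes that were above the filter level in 1 group only (Serpina3n and Serpina1b). Of the 14 proteases, 9 had a difference above 0 and 5 below. Both mutant arrays lay above all wild-type arrays for 5 proteases and 3 inhibitors, which 19.3% of all genes tested did, and below them for 1 protease and 3 inhibitors, which 19.9% did. The filter itself shapes these counts, ranges and medians. Serpina3n passed it only through the mutant arrays, and Serpina1b, Serpina1e and Serpini1 only through wild-type arrays.

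**Figure D1:**
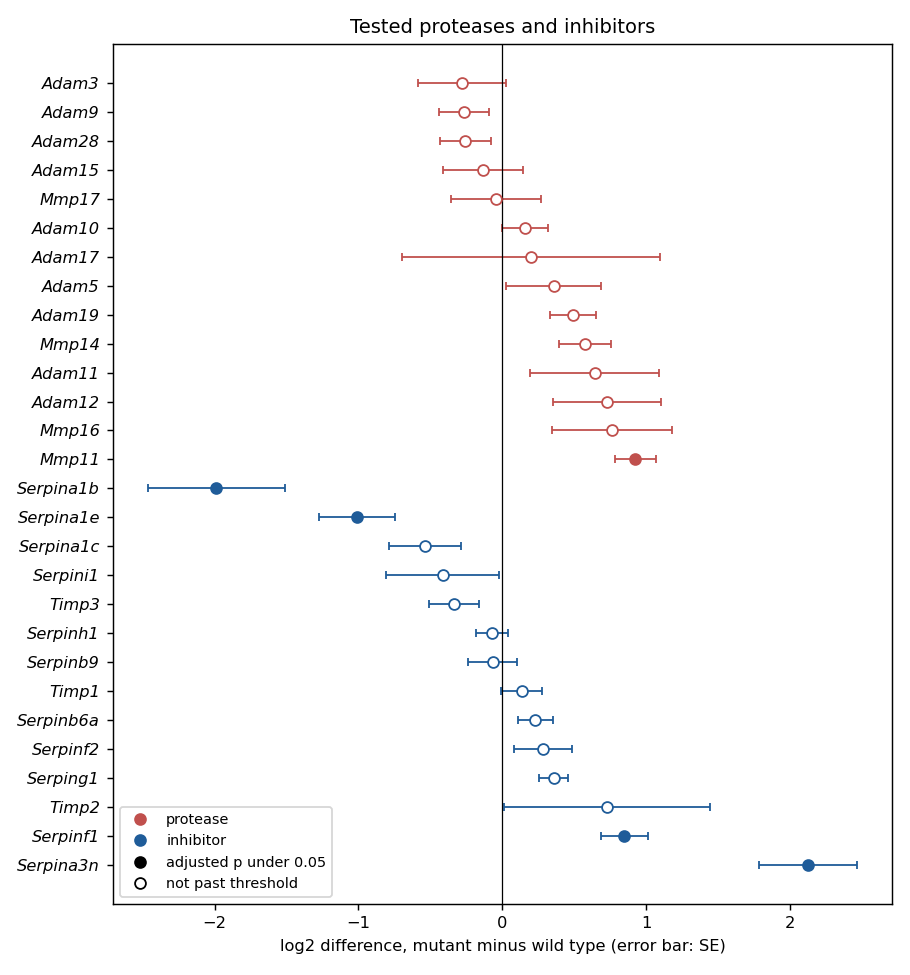
Log2 difference (mutant minus wild type) of the 14 proteases (red) and 14 inhibitors (blue) tested, each at its chosen probe set, with the standard error as a bar; filled points had a limma adjusted p under 0.05. The filled points are Mmp11 at 0.92 among the proteases, and Serpina1b, Serpina1e, Serpinf1 and Serpina3n among the inhibitors.

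Mmp11, or stromelysin-3, is a secreted protease known from mesenchymal cells next to remodelling epithelia. Its signal was 361, 392, 373 and 302 on the wild-type arrays, in the order of their replicate numbers, and 652 and 727 on the mutant arrays. Values per array follow this order throughout. The mutant arrays lay well above all wild-type arrays, with no overlap. The mean went from 357 ± 38.7 (SD, n = 4) to 689 ± 52.8 (SD, n = 2), which is 0.92 ± 0.14 on the log2 scale (SE; limma, adjusted p = 0.00430). The call held in 16 of 17 alternative analyses and was lost without mutant replicate 2 (0.85, adjusted p = 0.0703). The sum of the stromal markers rose beside it, and their part in the result was not tested.

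Mmp14, the membrane-type metalloproteinase that cuts collagen at the cell surface, read 1634, 1136, 1849 and 1719 in the wild type and 2192 and 2475 in the mutant. Both mutant arrays were higher than all wild-type arrays, and wild-type replicate 2 was the lowest of the 6. Its log2 difference of 0.57 ± 0.18 (SE) did not pass (limma adjusted p = 0.0767). It passed without wild-type replicate 2 (0.42, adjusted p = 0.0458), without replicates 2 and 4 (0.42, adjusted p = 0.0457), and in 2 other alternatives of 17. Its best known target, Mmp2, was not tested: its brighter probe set lay between 8.60 and 69.3 on all arrays, below the filter level.

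Mmp16, another membrane-type enzyme, read 101, 43.3, 54.4 and 113 in the wild type and 135 and 136 in the mutant. The mutant arrays were the highest, but the wild-type arrays spread over more than the gap, and the log2 difference of 0.76 ± 0.42 (SE) did not pass (limma adjusted p = 0.294). Mmp17, a membrane-type enzyme held by a lipid anchor, had 122 ± 31.4 (SD, n = 4) in the wild type and 115 ± 11.5 (SD, n = 2) in the mutant, with overlapping arrays (-0.04 ± 0.31 SE). Of the 4 tested Mmp genes, 3 thus had both mutant arrays above the wild type, and 1 of these was called. Over all genes tested, 19.3% had both mutant arrays above the wild type and 11.5% were called in either direction. With 4 genes, no family trend can be read from these counts. Mmp16 exceeded the filter level on 2 mutant arrays but on only 1 wild-type array.

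The other 9 Mmp genes were not tested, because none exceeded the filter level (101.1 to 110.4, depending on the array) on 2 arrays. Their chosen probe sets lay between 4.08 and 110.03: Mmp12 reached 110.03 on wild-type replicate 2 alone, and Mmp2, Mmp3, Mmp7, Mmp8, Mmp9, Mmp10, Mmp13 and Mmp24 stayed below the filter on all 6 arrays. These include the inducible collagenases, stromelysins and matrilysin, many of which carry an AP-1 site close to the start. Of the 9 Mmp genes with a promoter in the table, 5 hold TGANTCA, Mmp7 and Mmp12 in 1 of their 2 promoters each. None of those 5 genes passed the filter. They are shown here because this short element is what they share, with 47 bases on the plus strand around the match in capitals, at chr9:7445756-7445802 (Mmp3), chr9:7692007-7692053 (Mmp7), chr9:7502259-7502305 (Mmp10), chr9:7347310-7347356 (Mmp12) and chr9:7272459-7272505 (Mmp13).
Mmp3: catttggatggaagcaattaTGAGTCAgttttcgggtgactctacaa
Mmp7: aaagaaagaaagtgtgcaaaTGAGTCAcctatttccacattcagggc
Mmp10: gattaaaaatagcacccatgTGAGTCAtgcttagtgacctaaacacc
Mmp12: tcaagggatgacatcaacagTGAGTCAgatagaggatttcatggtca
Mmp13: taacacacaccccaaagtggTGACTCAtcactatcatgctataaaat
The match begins 46, 63, 63, 44 and 35 bases before the start in that order. TGANTCA reads the same on both strands. It occurs in 7.81% of all promoters and in 11 of the 45 member promoters (10 of the 39 member genes). Among these, Adam19, Serpina1b and Serpina1c passed the filter. Of the tested Mmp genes only Mmp11 and Mmp14 have a promoter in the table, so the Mmp genes with and without TGANTCA can hardly be compared. The flanking bases differ between the genes, unlike those of the antitrypsin genes. The letters say nothing of whether AP-1 was active in these kidneys.

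The ADAM family had 10 tested genes, of which limma called 0, with 1 (Adam19) at an unadjusted p under 0.05 and 0 called under any alternative. Since 11.5% of all genes tested were called, no family result can be read from 0 of 10. Adam10, the sheddase that cuts Notch receptors and cadherins, read 1218, 1199, 1191 and 838 in the wild type and 1166 and 1295 in the mutant. The groups overlapped, and wild-type replicate 4 was the low array. The log2 difference was 0.16 ± 0.16 (SE; limma, adjusted p = 0.587). A further Adam10 probe set read 596, 225, 547 and 622 against 448 and 598, with wild-type replicate 2 low and the groups again overlapping (0.15 ± 0.36 SE, adjusted p = 0.833).

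Adam19 (meltrin beta), an ADAM known from mesenchyme and the developing heart, read 751, 650, 608 and 509 in the wild type and 799 and 975 in the mutant. Both mutant arrays were higher than all wild-type arrays, the lower one by a small margin. The log2 difference of 0.49 ± 0.16 (SE) had the lowest adjusted p of the family and did not pass (limma, 0.0902). Adam12 (meltrin alpha), known from developing muscle and mesenchyme, read 126, 138, 82.5 and 53.8 against 173 and 162. Its mutant arrays were also the highest, with a wide wild-type spread (0.73 ± 0.37 SE, adjusted p = 0.258). For both genes the summed muscle and stromal markers given above were higher in the mutant, and their part in these values was not tested.

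Adam9, a widely expressed sheddase, was the only tested protease whose mutant arrays both lay below all wild-type arrays, with 294 ± 41.1 (SD, n = 4) and 240 ± 4.41 (SD, n = 2). Its log2 difference of -0.27 ± 0.17 (SE) did not pass (limma adjusted p = 0.379). Adam17, the tumour necrosis factor converting enzyme, was close to the filter level and read 123, 85.6, 96.9 and 3.92 against 170 and 23.9. With wild-type replicate 4 and mutant replicate 2 both near the bottom of the scale, its difference (0.20 ± 0.90 SE) carries no direction. Adam15 (-0.14), known from endothelium, Adam28 (-0.26), first described in lymphocytes, and Adam11 (0.64 ± 0.45 SE), a neural ADAM, had overlapping groups and adjusted p from 0.411 to 0.801.

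The sperm genes Adam3 and Adam5 each had a bright probe set, which was tested, and a dim one. At the tested probe set Adam3 read 212 to 507 and Adam5 341 to 995 over the 6 arrays, while a further probe set of each stayed at or below 35.7 and 25.0. Both tested probe sets carry the suffix r, with which Affymetrix marks probe sets that did not meet all of its design rules, as does the tested probe set of Adam28 given above. What these probe sets match was not tested. Their differences (-0.28 and 0.36) did not pass. The ADAM genes Adam2, Adam4, Adam7, Adam8, Adam22 and Adam23 (2.66 to 77.4) and Adamts1, the only ADAMTS on the array (9.52 to 44.8), stayed below the filter on all 6 arrays.

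**Figure D2:**
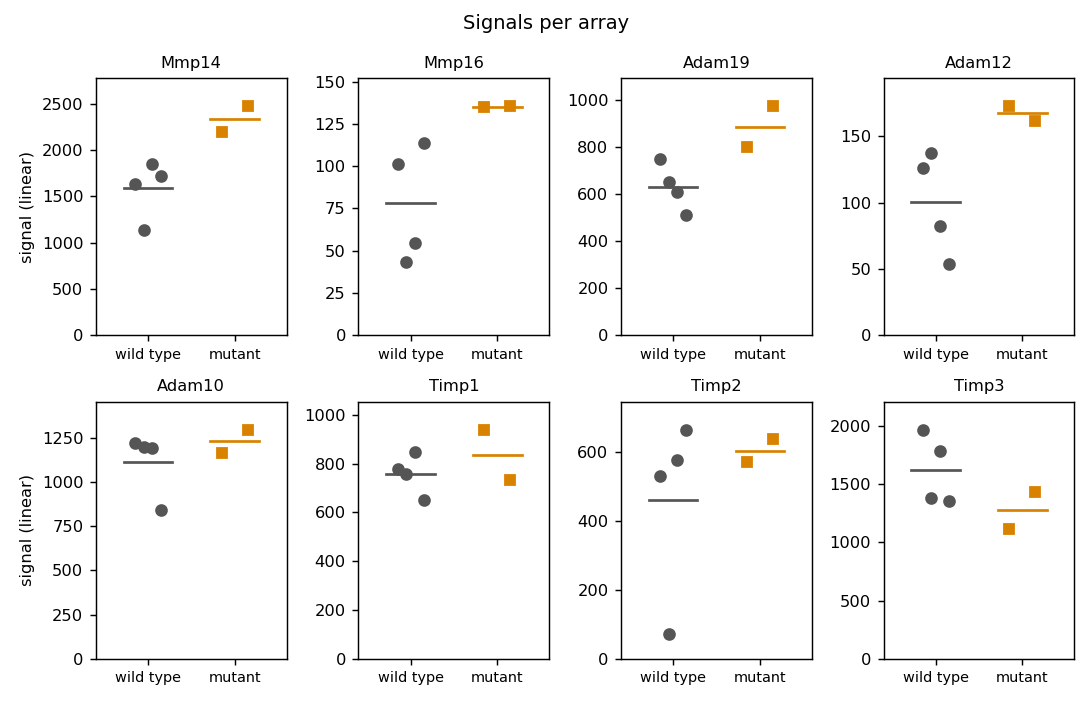
Linear signal on each array for 8 proteases and TIMPs (dots, 4 wild-type arrays; squares, 2 mutant arrays; lines, group means), with a separate axis from 0 in each panel. The mutant arrays lie highest for Mmp14, Mmp16, Adam19 and Adam12 without a call, and 1 wild-type array stands low for Adam10 (838) and Timp2 (71.8).

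All 3 Timp genes were tested and limma called 0, with 0 at an unadjusted p under 0.05. The share called was 11.5% over all genes tested, so with 3 genes no family result can be read from this. Timp3, the inhibitor that binds to the matrix and also blocks ADAMs, read 1966, 1383, 1779 and 1350 in the wild type and 1111 and 1435 in the mutant. Mutant replicate 2 lay inside the wild-type range, and the log2 difference was -0.34 ± 0.17 (SE; limma, adjusted p = 0.263). Without wild-type replicates 2 and 4, an analysis chosen after the data were seen, it was -0.56 (adjusted p = 0.0428).

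Timp1, a soluble inhibitor induced by growth factors, read 778, 757, 847 and 652 against 940 and 733, with overlapping groups (0.13 ± 0.14 SE, limma adjusted p = 0.616). Timp2, which inhibits MMPs and also takes part in the activation of pro-MMP2 by MMP14, read 531, 71.8, 576 and 665 against 570 and 637. Wild-type replicate 2 alone set its difference: this was 0.73 ± 0.72 (SE) with that array and 0.03 without it (limma adjusted p = 0.577 and 0.910). The further Timp1 and Timp2 probe sets, 1 and 2 in number, were not tested.

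The serpins of clade a, secreted mostly by the liver in adults, had 4 tested genes and moved in both directions. Serpina3n, a mouse counterpart of antichymotrypsin that inhibits elastase and granzyme B and is induced in injury and inflammation, read 86.1, 49.6, 47.4 and 44.3 in the wild type and 305 and 282 in the mutant. The mutant arrays were several times brighter, and all wild-type arrays were below the filter level. The log2 difference of 2.12 ± 0.34 (SE; limma, adjusted p = 0.00503) rests on wild-type signals below that level, and the gene was tested only because its mutant arrays were bright. It passed in the 14 alternatives in which it was tested (1.58 to 2.40). When either mutant array was left out, or at the stricter filter, it was not tested, so its dependence on these settings is not known. Of 9 tested macrophage and leukocyte markers 1 passed, C1qb, which was higher, and the summed signal of all 13 was 1724 to 2072 in the wild type and 2719 to 2930 in the mutant. Their part in the result was not tested.

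The Serpina1 genes encode alpha-1-antitrypsin, the main inhibitor of neutrophil elastase. Serpina1b read 225, 255, 165 and 126 in the wild type and 72.8 and 13.4 in the mutant, so both mutant arrays were lower, and far apart from each other. Its log2 difference was -1.99 ± 0.47 (SE; limma, adjusted p = 0.0312). Serpina1e read 181, 163, 152 and 141 against 77.1 and 64.9, with no overlap and little spread within groups (-1.01 ± 0.26 SE, adjusted p = 0.0429). Serpina1c read 313, 197, 190 and 199 against 163 and 132, and although both mutant arrays were again below the wild type, it did not pass (-0.54 ± 0.25 SE, adjusted p = 0.211).

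Neither antitrypsin call was stable. Serpina1b stayed past the threshold in 9 of 16 alternatives (adjusted p from 0.0160 to 0.201) and Serpina1e in 7 of 16 (0.0103 to 0.234). Without mutant replicate 2 the Serpina1b difference was -1.19 (adjusted p = 0.201), and that of Serpina1e was -0.91 (adjusted p = 0.234). Both were also lost with no filter, without wild-type replicate 1, 2 or 3, and without wild-type replicates 2 and 4. The direction stayed negative throughout.

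The chosen probe sets of these 3 genes carry the suffix f, which Affymetrix uses for probe sets that can match several members of a sequence family. With such probe sets, signal from 1 antitrypsin gene can be counted for another, so the 3 results cannot be taken as independent. A further Serpina1c probe set, without that suffix, read 32.6, 10.4, 21.0 and 71.1 against 5.85 and 53.3. Its groups overlapped, it stayed below the filter on all arrays, and it was not tested. The printed windows lie before the start sites and say nothing of the sequences the probes match. Another 3 probe sets name several Serpina1 genes and were assigned to none. That with 3 names read 155, 74.4, 115 and 89.5 against 13.9 and 10.5 (-2.10, limma adjusted p = 0.0265), and that with 4 names had -0.86 (adjusted p = 0.112). The one with 5 names was not tested, and its groups overlapped. Among 13 measured hepatocyte markers only Afp was tested, and it was lower (142 to 195 against 61.6 and 68.0; -1.17, adjusted p = 0.0258), whereas Alb lay between 12.1 and 84.1 with 55.1 and 84.1 in the mutant. The summed hepatocyte signal was 468 to 685 in the wild type and 461 to 535 in the mutant, and the proximal tubule sum fell as given above. Their part in the antitrypsin result was not tested.

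Serpinf1, or pigment epithelium-derived factor, is a secreted serpin that limits vessel growth. Its signal was 542, 494, 608 and 638 in the wild type and 873 and 1226 in the mutant, both above all wild-type arrays. The mean went from 571 ± 64.8 (SD, n = 4) to 1050 ± 250 (SD, n = 2), which is 0.85 ± 0.16 on the log2 scale (SE; limma, adjusted p = 0.0118). The call was lost without mutant replicate 2 (0.61, adjusted p = 0.148). A further Serpinf1 probe set, which carries the suffix r, read 214, 147, 29.5 and 73.5 against 130 and 116, with overlapping groups (0.32, adjusted p = 0.779), and the mean over both probe sets did not pass either (0.58, adjusted p = 0.206). Of 9 tested endothelial markers 4 passed, all lower (summed signal 6800 to 6930 against 4900 to 5159), and the stromal sum was higher; their part in the result was not tested.

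Serpinf2, alpha-2-antiplasmin, the fast inhibitor of plasmin, gave opposite results at its 2 probe sets. The brighter one, chosen by the rule, read 197, 296, 229 and 203 against 275 and 289, with the groups overlapping (0.28 ± 0.20 SE; limma, adjusted p = 0.423). The further one read 305, 190, 228 and 177 in the wild type and 23.7 and 40.4 in the mutant, and both mutant arrays were far below the wild type. Its log2 difference of -2.32 ± 0.32 (SE; limma, adjusted p = 0.00203) kept its call in all 15 alternatives in which it was tested (-2.79 to -1.58). Both mutant arrays lay below the filter level, so this further probe set was tested only because its wild-type arrays were bright. The chosen probe set carries the suffix r, and the further one does not. Averaged over both, the difference was -1.02 (adjusted p = 0.0163), so the value given for this gene depends on the probe set, and which of them measures its transcript was not tested.

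**Figure D3:**
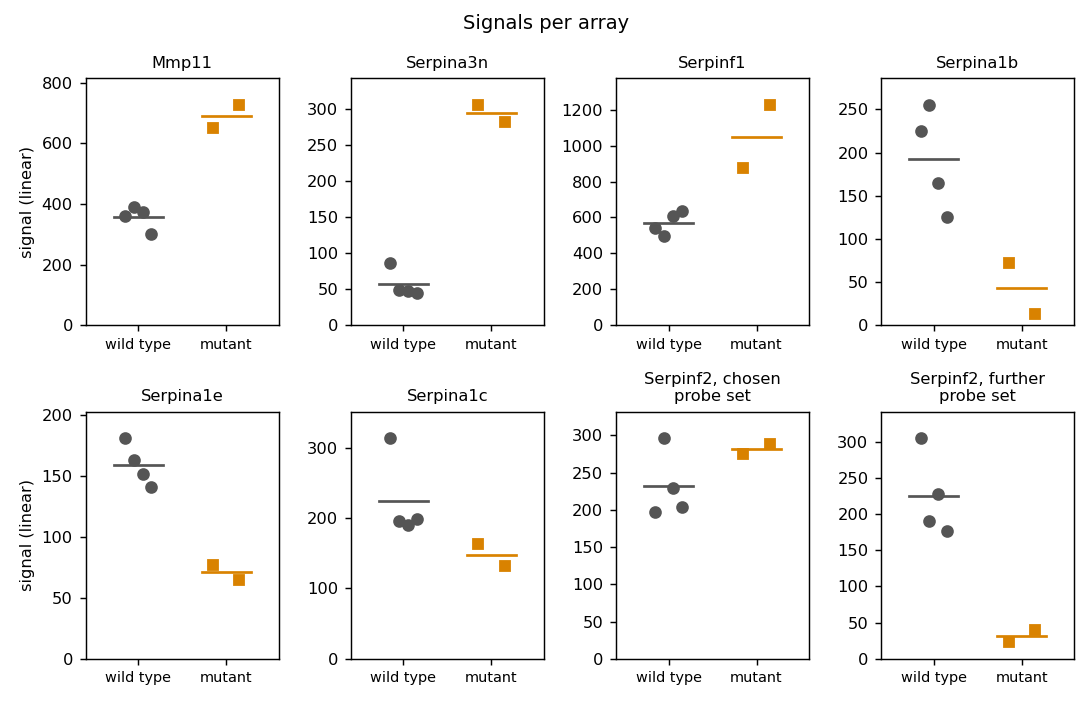
Linear signal on each array for the called members, Serpina1c and both Serpinf2 probe sets (dots, 4 wild-type arrays; squares, 2 mutant arrays; lines, group means), with a separate axis from 0 in each panel. Mutant arrays lie above all wild-type arrays for Mmp11, Serpina3n and Serpinf1 and below them for the 3 antitrypsin genes, while the 2 Serpinf2 probe sets disagree (289 against 40.4 on mutant replicate 2).

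The remaining serpins lay on either side of 0 without a call. Serping1, the C1 inhibitor that controls complement and contact proteases, read 910, 839, 858 and 934 in the wild type and 1109 and 1163 in the mutant. Its mutant arrays were clearly above the narrow wild-type range, and its log2 difference of 0.36 ± 0.10 (SE) just missed the threshold (limma adjusted p = 0.0540). It passed in 4 of 17 alternatives. Serpinh1 (HSP47), the collagen chaperone of the endoplasmic reticulum, read 7440, 8598, 7829 and 6584 against 7504 and 6940, with full overlap (-0.07 ± 0.11 SE, adjusted p = 0.741).

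Serpinb6a, an intracellular inhibitor, had 854 ± 70.9 (SD, n = 4) in the wild type and 1004 ± 110 (SD, n = 2) in the mutant (0.23 ± 0.12 SE, limma adjusted p = 0.270). Serpinb9, the granzyme B inhibitor of leukocytes, had 247 ± 21.4 and 235 ± 19.3 (-0.07 ± 0.17 SE, adjusted p = 0.843). Serpini1, or neuroserpin, an inhibitor of tissue plasminogen activator, had 108 ± 31.9 and 76.1 ± 27.2, with no mutant array above the filter (-0.42 ± 0.39 SE, adjusted p = 0.561). For all 3 the groups overlapped.

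Of the 12 serpins that were not tested, Serpina6 and Serpinb9e exceeded the filter on 1 array each, and the highest signal was 122.69 for Serpinb9e. Serpina5, Serpina10, Serpina12, Serpinb1a, Serpinb2, Serpinb3a, Serpinb5, Serpinb6c, Serpinc1 and Serpind1 stayed below it on all 6 arrays. Serpinc1, or antithrombin, reached 19.3 at most. These signals give no level that could be compared between the groups, and a dim probe set does not show that a gene is off.

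**Figure D4:**
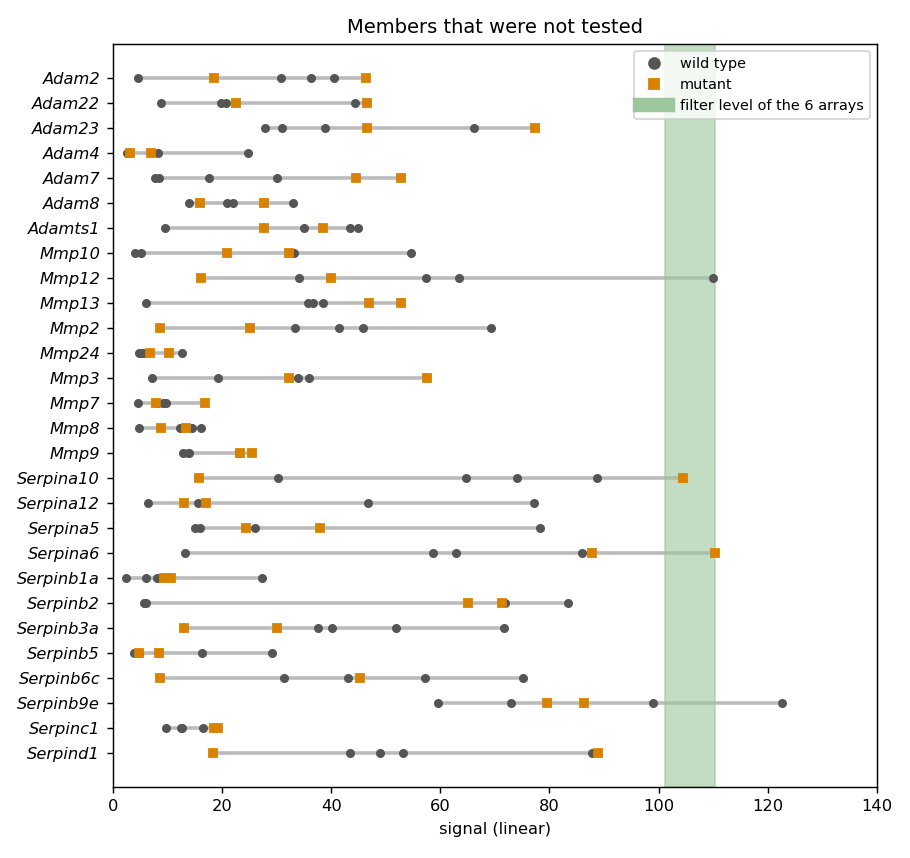
Linear signal on each array for the 28 members that were not tested (dots, wild type; squares, mutant; grey line, range), with the filter levels of the 6 arrays as a green band. Mmp12, Serpina6 and Serpinb9e exceeded their array's filter level on 1 array each, up to 122.69, and the other 25 on 0.

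Beside the members, lists of their partners were counted at the same threshold, at which 11.5% of all genes tested were called, with a median difference of 0.01. In the plasminogen and serine protease system, the targets of many serpins, 1 of 18 tested genes passed (median difference -0.04). It was Hpn, the membrane serine protease hepsin, which was lower (366 ± 65.6 in 4 wild-type and 175 ± 50.1 in 2 mutant arrays; -1.01, limma adjusted p = 0.0212). Plat, tissue plasminogen activator, had a mean signal of 2668 ± 87.7 against 2131 ± 335, with both mutant arrays below the wild type, and did not pass (-0.33, adjusted p = 0.0779). The thrombin receptor F2r had -0.03 (adjusted p = 0.842).

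Of 10 tested zinc metallopeptidases outside the member families, 3 were lower and 2 higher (median -0.22). The lower ones are brush-border enzymes of the proximal tubule: Mep1a, a meprin subunit, went from 202 ± 41.4 to 7.21 ± 2.26 (-3.21, limma adjusted p = 0.000726), Enpep, aminopeptidase A, had -1.29 and Anpep, aminopeptidase N, had -0.69. Mep1a is itself one of the proximal tubule markers, whose sum was lower as given above, and the part of these markers in the 3 calls was not tested. The higher ones were Cpe, carboxypeptidase E (1.02), and Bmp1, the procollagen C-proteinase (0.52, adjusted p = 0.0149). Ece1 (-0.02) and Cpd (-0.23) did not pass.

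Among other inhibitors and regulators, 2 of 7 were lower and 1 higher (median 0.20). Cst3, cystatin C, an inhibitor of cathepsins, rose (0.52, limma adjusted p = 0.00909), while Wfdc2 (-0.41) and Bsg, the MMP inducer basigin (-0.34, adjusted p = 0.0488), fell. Reck, a membrane-anchored MMP inhibitor, had both mutant arrays above the wild type and did not pass (0.43, adjusted p = 0.123), and Spint1, an inhibitor of hepsin, had 0.20.

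ADAM substrates had 2 lower and 1 higher of 8 tested (median -0.18). The Notch ligand Dll1 fell from 680 ± 75.6 (SD, n = 4) to 52.4 ± 31.9 (SD, n = 2), a log2 difference of -3.42 (limma adjusted p = 0.000110), and the receptor Notch1 also fell (-0.73), whereas N-cadherin, Cdh2, rose (0.74). The sheddases that cut them, Adam10 and Adam17, did not pass, as given above, and neither did App (0.06) or Notch2 (-0.41).

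Matrix substrates of MMPs and ADAMTS enzymes had 2 lower and 4 higher of 12 tested (median 0.22). Vcan, the ADAMTS substrate versican (0.98, limma adjusted p = 0.00104), Fbn2, fibrillin 2 (0.89), Dcn, decorin (0.71), and Eln, elastin (0.41), rose. The basement membrane collagens Col4a2 (-0.66) and Col4a1 (-0.47) fell, and the fibrillar collagens Col1a1 (0.34) and Col1a2 (0.18) did not pass. Dcn is also on the stromal marker list. Of 5 tested serpin partners (median 0.41) 2 passed, both higher: P4ha2, a collagen prolyl hydroxylase subunit (0.57), and Lrp1, the endocytic receptor for serpin-protease complexes (0.48), while P4hb (0.38) did not pass.

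The results that change with the analysis are concentrated in a few genes. Of the called members and 2 just short of the threshold, Serpina3n and the further Serpinf2 probe set kept their calls wherever they were tested, Mmp11 and Serpinf1 lost theirs in 1 and 2 of 17 alternatives, and the antitrypsin genes in 7 and 9 of 16. Serping1 and Mmp14 each passed in 4 of 17. Serpina3n, the 2 called antitrypsin genes and the further Serpinf2 probe set were above the filter level in 1 group only, so they were tested through that group.

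**Figure D5:**
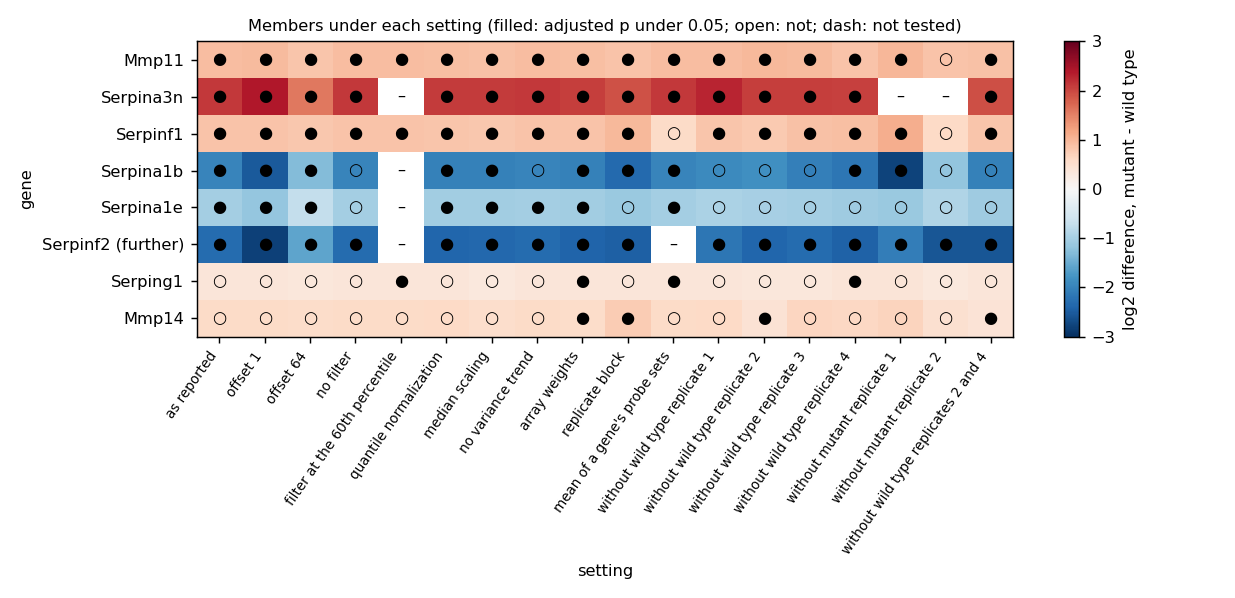
Log2 difference (colour, mutant minus wild type) of 7 members and the further Serpinf2 probe set under each analysis setting; filled circles had a limma adjusted p under 0.05, open circles did not, and a dash marks a setting in which the probe set was not tested. Serpina3n and the further Serpinf2 probe set are filled wherever tested, while Serpina1b and Serpina1e lose their calls in 7 and 9 of 16 alternatives.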

How the data were processed

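Signals of 4 wild-type and 2 Wnt4 mutant kidney pools were used. The deposited values are linear probe set intensities that the authors made with GCOS, the Affymetrix array program, per the submitters' processing notes. The sources used here give neither its version nor its settings. Each array's mean without the lowest and highest 2% of values was 500.27 to 500.29, so the arrays had been scaled before deposit, and their small number limits the precision.

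Symbols came from the platform annotation, updated by gene identifier to RefSeq GRCm38.p6. Of 12422 probe sets, 10833 had 1 symbol, 396 several and 1193 were unnamed here, and probe sets with several symbols named no gene. Of several probe sets of a gene, the one with the highest log2 mean stood for it. Values were analysed as log2(signal + 16), which understates changes of dim genes, with no further normalization. limma 3.58.1 (R 4.3.3; lmFit and eBayes with a variance trend, no covariate) was fitted to all probe sets above the 40th percentile of their array on at least 2 arrays, with Benjamini-Hochberg adjustment and a threshold of 0.05; the procedure was tested on simulated data. The p-values measure the spread between these pools, and an exact permutation test of 4 against 2 arrays could not go below 0.0667.

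Named were all called members, in each family or serpin clade the brightest tested member and the one nearest the threshold, and members whose probe sets disagreed. The other members are all accounted for, and partner lists give up to 6 called and 2 bright uncalled genes each. Members and lists were chosen with earlier results of these data known. Alternatives changed the offset, filter, scaling, variance model, array weights, probe set rule, replicate numbers and arrays used.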

Additional observations from a re-analysis of the deposited data

Results flagged for a closer look

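In the wild type, 1 of the 4 arrays stood apart from the others by Dixon's test on the log2 scale for 6 of the 31 member probe sets tested, where chance flags about 1 in 20. Adam10 read 838.45 on wild-type replicate 4, below the other 3 arrays. Its further probe set read 225.06 on wild-type replicate 2. Adam17 read 3.92 on wild-type replicate 4, and Timp2 read 71.76 on wild-type replicate 2, both far below the other arrays. High arrays were found for Serpina1c, with 313.48 on wild-type replicate 1, and for Serpina3n, with 86.08 on the same array. Without wild-type replicate 1 the Serpina3n difference was 2.30 and its limma adjusted p was 0.00618.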

How the results depend on the processing

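Over single members, 457 alternative values kept their direction and side of the threshold, 19 lost a call, 9 gained one and 19 changed sign. The count of members lower was 2 as reported (both inhibitors), and 0 without a filter or with the 60th percentile as filter. It was 1 each with no variance trend, with the replicate block and without wild-type replicates 2 and 4 (0 to 1 leaving out 1 wild-type array). Without wild-type replicates 2 and 4 the member counted was Timp3, and neither of the 2 reported genes kept its call. The inhibitors lower gave the same counts. The 3 members higher became 5 with array weights (0 to 4 leaving out 1 array). Proteases higher, 1 as reported, were 2 with array weights, with the replicate block and without wild-type replicates 2 and 4 (0 to 2), and the 2 inhibitors higher ranged from 0 to 3. The median of the proteases was 0.018 with the replicate block (0.072 without wild-type replicate 4 to 0.40 without mutant replicate 2), and that of the inhibitors 0.23 with the filter at the 60th percentile (-0.13 to 0.068 leaving out 1 array). Over all genes, 386 were lower and 312 higher: 254 lower with no variance trend, 588 and 507 with array weights, 249 lower without wild-type replicate 1, 159 and 113 without mutant replicate 1, and 148 and 98 without mutant replicate 2.

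Sign changes touched uncalled values, except for Serpinf2, whose mean over both probe sets was -1.02. Adam17 was -0.12 with array weights, -0.46 with the replicate block and -0.54 without wild-type replicates 2 and 4 (-0.44 to 1.31 leaving out 1 array). The further Adam10 probe set was -0.14 without wild-type replicates 2 and 4 (-0.18 to 0.35). With the replicate block Adam5 was -0.062, Mmp17 0.013 and the further Serpinf1 probe set -0.48. Mmp17 was 0.016 without wild-type replicates 2 and 4. Leaving out 1 array gave -0.18 to 0.051 for Mmp17, -0.11 to 0.67 for the further Serpinf1 probe set, -0.35 to 0.082 for Adam15, -0.15 to 0.011 for Serpinb9 and -0.042 to 0.31 for Timp1. The cause was not tested for any of these. Replicate numbers did not pair the arrays: deviations from the group means correlated at 0.003 for number 1 and -0.015 for number 2. Leaving out wild-type replicates 2 and 4 was chosen after seeing the data. With 1 mutant array left, its spread was assumed to be that of the wild type.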
